A study of Mus musculus with 31 samples.

Results

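Hcn2, Sgk2, Kcnk3, Ankrd9, Ctsz, Cars2, Rom1 and Tesc are 8 genes, of 17334 transcript accessions counted, that were selected on a measured rise in brown fat after 2 days in the cold and that are less often discussed there than Ucp1. RNA-seq libraries were made from 3 fat depots, the brown fat between the shoulder blades (iBAT, interscapular), the white fat of the groin (iWAT, inguinal) and that beside the testis (eWAT, epididymal), of male C57BL/6J mice aged 8 weeks. All mice, controls included, first spent 8 days at thermoneutrality. The day 0 group had no cold, and the day 2 and day 4 groups then spent 2 or 4 days at 4 °C. At days 0, 2 and 4, iBAT had 3, 4 and 3 libraries, iWAT had 4, 3 and 5, and eWAT had 3 each. Each gene has 1 row in the count tables. Because the day 2 iBAT values chose the genes, those values are described here without a test, and so are the other iBAT values that share the day 0 iBAT libraries.

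Brown adipocytes burn fatty acids and glucose for heat when sympathetic nerves release noradrenaline, which raises cAMP in the cell and drives lipolysis and the transcription of Ucp1, the mitochondrial uncoupling protein. Inguinal white fat can gain brown-like (beige) adipocytes in the cold, whereas epididymal fat does so far less. The 8 genes act in different places around that machinery. Hcn2 and Kcnk3 encode ion channels, Sgk2 a kinase and Tesc a calcium-binding protein. Ankrd9 and Ctsz act in protein turnover, Cars2 in mitochondrial translation, and Rom1 is a membrane protein.

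The sequence before the start site is shown for the pair of genes, of the 6 with a RefSeq promoter entry (GRCm38.p6), that held a short motif known from cAMP-responsive or nuclear receptor binding sites. Capitals mark TGACCTT, the reverse strand reading of the extended nuclear receptor motif AAGGTCA, in Hcn2 and the short CRE motif TGACG in Ankrd9. The Hcn2 run is the 250 bases at chr10:79716384-79716633 (plus strand), and the Ankrd9 run is the 208 bases at chr12:110979083-110979290 (minus strand) that lie outside the annotated gene.
Hcn2: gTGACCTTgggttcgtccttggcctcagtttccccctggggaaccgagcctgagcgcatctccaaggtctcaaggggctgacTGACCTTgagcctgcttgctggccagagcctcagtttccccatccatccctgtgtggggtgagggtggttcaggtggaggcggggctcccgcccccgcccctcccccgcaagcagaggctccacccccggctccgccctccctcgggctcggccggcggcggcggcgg
Ankrd9: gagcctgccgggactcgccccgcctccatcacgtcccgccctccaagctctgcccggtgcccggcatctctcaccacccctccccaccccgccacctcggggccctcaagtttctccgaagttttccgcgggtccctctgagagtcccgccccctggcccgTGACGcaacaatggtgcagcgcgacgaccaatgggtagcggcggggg
In Hcn2 the matches began 249 and 168 bases before the start, and in Ankrd9 the match began 89 bases before it. Both strands of the 250 bases before each start were searched. The extended motif, which contains AGGTCA, was in 4.08% of 32851 RefSeq mouse promoters, AGGTCA in 14% and TGACG in 17.8%. The whole CRE TGACGTCA, which contains TGACG, was in 1.55% of them and in no window of the 6 genes. Ankrd9 has a second entry, whose window held TGACG at 65 bases before its start and did not hold the CCAAT box. CCAAT was in 33.8% of all promoters and in windows of 3 of the 6 genes, Ankrd9, Ctsz and Cars2. These are letter matches only. The windows of Tesc (73.2% G and C), Ankrd9 (72.8%), Hcn2 (70.4%) and Rom1 (66.8%) lay above the upper quartile of all promoters, 61.2%, and those of Ctsz (58.8%) and Cars2 (56%) below it.

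Libraries held 1.58 to 3.76 M counts in iBAT, 1.5 to 5.53 M in iWAT and 3.19 to 4.03 M in eWAT. Levels are in CPM, the count scaled to a common library total with TMM factors. Means carry the SD over libraries, which are named as in the labels. In libraries iBAT539 (day 2) and iBAT548 (day 4) only 8698 and 7535 accessions had a count, against 10473 to 11875 in the other iBAT libraries, but each of the 8 genes had a count in both. The brown adipocyte markers (7 with a row: Ucp1, Cidea, Dio2, Elovl3 and others of the list) summed to 9020 to 10700 CPM in iBAT at day 0, 20600 to 46100 at day 2 and 33900 to 35100 at day 4. Like the 8 genes they were higher in the cold, but their median was 27100 CPM at day 2 and 34200 CPM at day 4. That order was not shared by every marker. The iBAT mean of Ucp1, the most abundant of those named, was 22300 CPM at day 2 and 27100 CPM at day 4. The means of Elovl3 (768 and 547 CPM) and Dio2 (424 and 215 CPM) were lower at day 4. The means of all 8 but Tesc were lower at day 4 than at day 2. In iWAT the brown adipocyte markers summed to 88.7 to 1420, 3800 to 9250 and 732 to 10600 CPM, and in eWAT to 10.9 to 358 CPM. Zic1, a marker of classical brown fat, was listed at 0 in all white fat libraries, but so was Pparg, a gene of all adipocytes, which was also at 0 in iBAT in the cold. Epididymis and testis markers summed to 99 to 33800 CPM in eWAT. Skeletal muscle markers summed to 16600 to 49600 CPM in iBAT at day 0 and 4290 to 20200 CPM in the cold, and lymphocyte markers to 860 to 3270 CPM in iWAT against 0 to 45.9 CPM in the other depots. The part of these markers' cells in the results was not tested. In whole tissue, fewer cells of a type and less RNA per cell cannot be told apart.

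**Figure D1:**
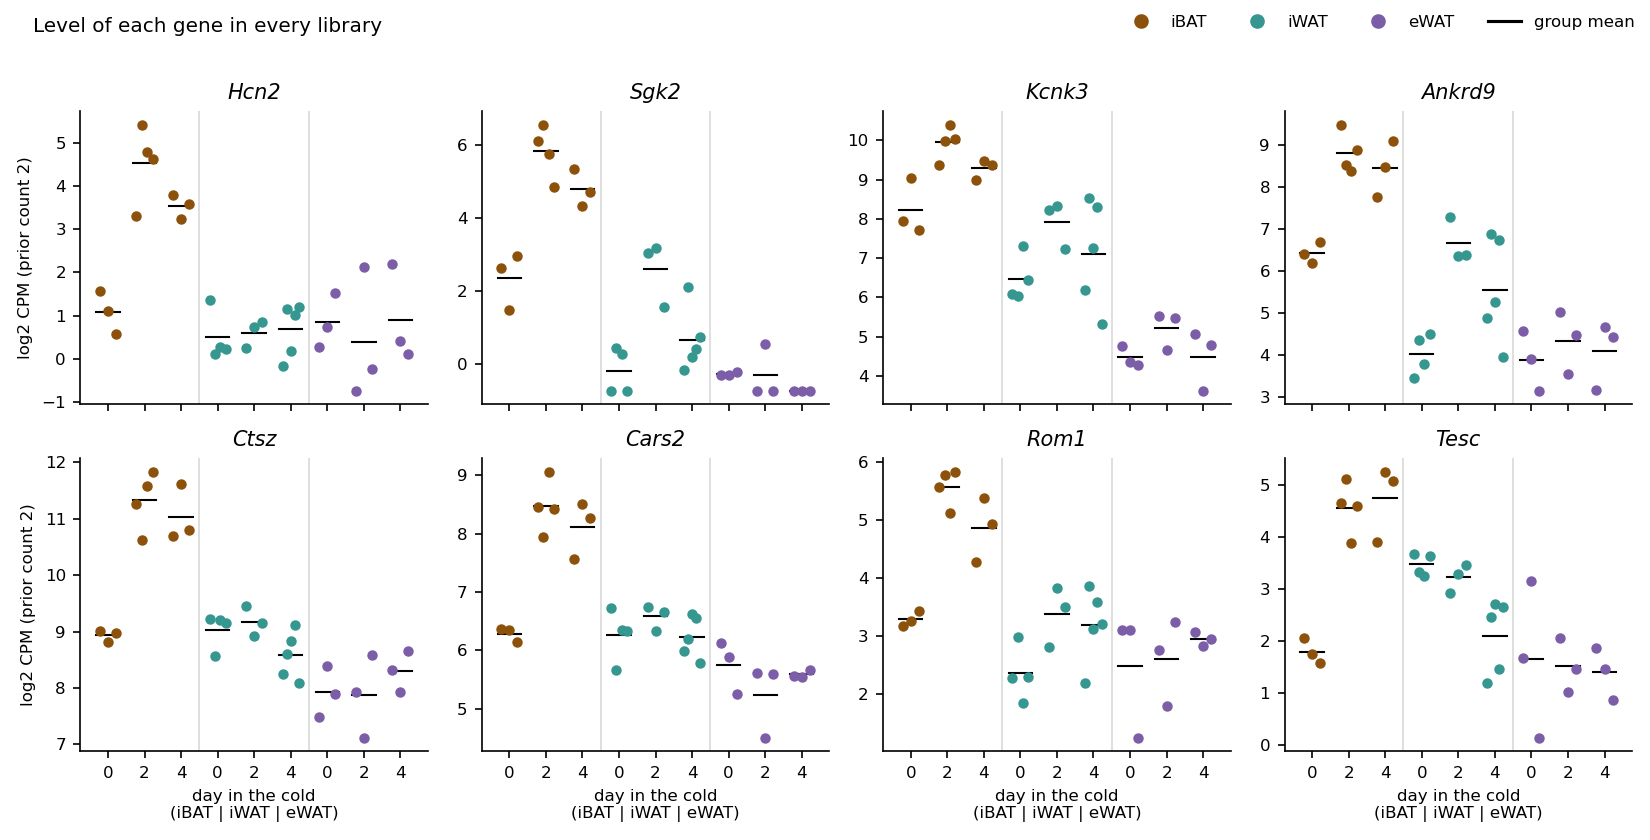
Level of each gene in every library. Each panel is 1 gene, the vertical axis is log2 CPM with a prior count of 2, and the horizontal axis gives the days in the cold for iBAT, iWAT and eWAT in turn. Points are libraries and bars are group means. All 8 genes stand higher in iBAT at day 2 than at day 0, while in iWAT only Sgk2 and Ankrd9 are fully separated at day 2.

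Hcn2 encodes a channel that opens on hyperpolarisation, is gated in part by cAMP and is best known as a pacemaker channel of heart and brain (NM_008226, chr10:79716634-79736108). It stood at 2.4, 1.55 and 0.898 CPM in the iBAT libraries of day 0, at 9.24, 42.5, 27.2 and 24.4 CPM at day 2 and at 13.2, 8.78 and 11.5 CPM at day 4. The groups in the cold do not overlap day 0, and the log2 differences from day 0 were 4.06 (SE 0.66) at day 2 and 2.88 (SE 0.66) at day 4. White fat held almost none of it at any time. Its means were 0.914 ± 0.719, 0.943 ± 0.316 and 1.12 ± 0.657 CPM in iWAT at days 0, 2 and 4 (SD, n = 4, 3 and 5). In eWAT they were 1.31 ± 0.87, 1.33 ± 2.1 and 1.73 ± 1.96 CPM (n = 3 each). The whole white fat record rests on 11 to 24 counts per group, so Hcn2 was too low to be tested over time in iWAT. Before the cold, iBAT did not stand apart either: 1 of its 3 libraries exceeded all iWAT libraries.

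Kcnk3 encodes TASK-1, a background potassium channel of the two-pore family that is known to be enriched in brown adipocytes and to restrain their response to noradrenaline (NM_010608, chr5:30588170-30625270). In iBAT it stood at 247, 527 and 210 CPM at day 0, at 655, 1020, 1350 and 1040 CPM at day 2 and at 512, 712 and 661 CPM at day 4. Day 0 and day 2 do not overlap, but the day 0 library iBAT517 exceeded 1 of the 3 day 4 libraries. Kcnk3 had the smallest log2 difference of the 8, 1.73 (SE 0.41) at day 2 and 1.02 (SE 0.42) at day 4. Before the cold it also differed between the white depots. iWAT held 94.3 ± 43.6 CPM (n = 4) and eWAT 21.9 ± 4.03 CPM (n = 3), a log2 difference of 2.11 (SE 0.58, edgeR quasi-likelihood test, adjusted p = 0.0227). None of these iWAT libraries, at 64.9 to 158 CPM, fell to the eWAT range of 19 to 26.5 CPM. The call was lost without iWAT518, eWAT516 or eWAT518.

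In the cold the iWAT libraries held 297, 319 and 150 CPM of Kcnk3 at day 2 and 71.8, 371, 152, 313 and 39.2 CPM at day 4. At day 2 the mean was 256 ± 91.6 CPM, but iWAT539 lay below the highest day 0 library. The log2 differences, 1.42 (SE 0.65, edgeR adjusted p = 0.468) and 1.05 (SE 0.58, edgeR adjusted p = 0.702), did not pass. In eWAT Kcnk3 stayed between 11.8 and 45.2 CPM in every library. Its day 2 difference there was 0.81 (SE 0.45) on the log2 scale and did not pass either (edgeR adjusted p = 1).

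Sgk2 encodes a serine/threonine kinase of the serum- and glucocorticoid-regulated family, relatives of Akt known for control of ion channels and transporters (NM_013731, chr2:162987327-163014139). The iBAT libraries held 5.6, 2.17 and 7.18 CPM at day 0, then 69.3, 94.5, 53.4 and 28.4 CPM at day 2 and 40.5, 19.4 and 25.8 CPM at day 4. Every library in the cold lay above every day 0 library. The log2 differences were 3.67 (SE 0.59) and 2.64 (SE 0.59). In iWAT it was near the detection limit before the cold, with 4 counts in all over the 4 day 0 libraries, at 0, 0.734, 0.601 and 0 CPM. At day 2 the iWAT libraries held 7.6, 8.47 and 2.37 CPM, above all of day 0, and at day 4 they held 0.283, 3.72, 0.539, 0.717 and 1.04 CPM, which overlaps day 0.

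The day 2 difference of Sgk2 in iWAT was 4.12 on the log2 scale (SE 1, higher in 3 of 3 libraries). It did not pass edgeR (adjusted p = 0.252), passed DESeq2 (adjusted p = 0.0245) and did not pass edgeR with a library score as covariate (adjusted p = 0.0589). Without 1 library at a time the edgeR adjusted p ran from 0.091 to 0.718. Sgk2 passes the filter on low counts in iWAT only through libraries in the cold, where it was higher, so the DESeq2 call adds no support. At day 4 the difference was 2.03 (SE 0.99, edgeR adjusted p = 0.627). In eWAT Sgk2 had 3 counts in all at day 0, 3 at day 2 and 0 at day 4, so it was not tested over time there and no fold is given.

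Tesc encodes tescalcin, an EF-hand protein of the calcineurin B homologous family (NM_021344, chr5:118027743-118061878). In iBAT it stood at 3.6, 2.79 and 2.39 CPM at day 0, at 24.6, 34.1, 14.1 and 23.7 CPM at day 2 and at 14.4, 37.6 and 33 CPM at day 4. It was the 1 gene of the 8 with a larger log2 difference at day 4 (3.30, SE 0.53) than at day 2 (3.10, SE 0.51), by far less than these errors. Its order among depots turned over. At day 0 every iWAT library, at 12.2, 9.54, 9.01 and 11.8 CPM, lay above every iBAT library, and at day 4 every iBAT library lay above every iWAT library.

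In iWAT, the Tesc mean was lower in the cold, not higher. It stood at 7.02, 9.27 and 10.4 CPM at day 2 and at 1.7, 4.89, 5.93, 2.15 and 5.74 CPM at day 4, below all of day 0 in 5 of 5 libraries. The share of all genes for which this held was not computed, so the separation is a description only. The day 4 difference was -1.31 on the log2 scale (SE 0.42) and did not pass edgeR (adjusted p = 0.486) or DESeq2 (adjusted p = 0.177). In eWAT its libraries ran from 0.507 to 8.25 CPM at day 0 and from 1.22 to 3.6 CPM in the cold, with no separation.

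Ankrd9 encodes an ankyrin repeat protein that serves as a substrate receptor of cullin-RING ubiquitin ligases and is known to act on IMPDH, the rate-limiting enzyme of guanine nucleotide synthesis (NM_175207, chr12:110976420-110979082). In iBAT it stood at 83.6, 72 and 103 CPM at day 0, at 712, 366, 330 and 469 CPM at day 2 and at 218 and 357 CPM at day 4 with iBAT555 highest (9.08 on the log2 CPM scale). The log2 differences from day 0 were 2.53 (SE 0.42) and 2.16 (SE 0.42), with no overlap. In iWAT the pattern was of like size. The libraries held 10.5, 20.1, 13.2 and 22.2 CPM at day 0 and 156, 81 and 83 CPM at day 2, a log2 difference of 2.65 (SE 0.63) with every day 2 library above every day 0 library.

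That iWAT difference in Ankrd9 did not pass edgeR (adjusted p = 0.252, 0.0748 to 0.718 without 1 library at a time) and passed DESeq2 (adjusted p = 0.00894). At day 4 the iWAT libraries spread from 15 to 118 CPM, 4 of 5 above all of day 0, with a log2 difference of 1.92 (SE 0.57, edgeR adjusted p = 0.474). In eWAT, Ankrd9 stood at 15.3 ± 7.4, 21.5 ± 10.3 and 18.1 ± 8.54 CPM at days 0, 2 and 4 (n = 3 each), all overlapping. Its iWAT and eWAT differences were 2.20 log2 units apart at day 2 (SE 0.82), which did not pass the test of that difference (edgeR adjusted p = 0.777).

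Ctsz encodes cathepsin Z, a lysosomal cysteine carboxypeptidase that is abundant in macrophages (NM_022325, chr2:174427494-174439039). In iBAT it stood at 515, 449 and 505 CPM at day 0, at 2450, 1580, 3060 and 3680 CPM at day 2 and at 1660, 3130 and 1790 CPM at day 4. These groups do not overlap, and the log2 differences were 2.56 (SE 0.42) and 2.24 (SE 0.43). The macrophage markers (7 of 8 listed have a row, all detected) summed to 72.8 to 175 CPM in iBAT at day 0, 84.7 to 187 CPM at day 2 and 56.4 to 107 CPM at day 4, ranges that overlap. Per kilobase of transcript Ctsz was the most abundant of the 8 in iBAT at day 2, at 1870 CPM per kb, against 267 for Kcnk3, 193 for Cars2, 182 for Ankrd9, 31.5 for Rom1, 23.4 for Tesc, 22.8 for Sgk2 and 8.09 for Hcn2.

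Before the cold, Ctsz overlapped between iWAT and iBAT and was lower in eWAT, and neither white depot showed such a step. In iWAT it stood at 531 ± 104, 583 ± 107 and 395 ± 115 CPM at days 0, 2 and 4, and in eWAT at 250 ± 79.3, 255 ± 123 and 322 ± 79.1 CPM. The iWAT log2 differences of 0.11 (SE 0.38, edgeR adjusted p = 0.922) and -0.37 (SE 0.33, edgeR adjusted p = 0.848) lay near their errors, and the first turned to -0.05 without iWAT517 of day 0 and to -0.06 without iWAT532 of day 2. Macrophage markers in iWAT were 248 to 526 CPM at day 0 and 94.4 to 335 CPM in the cold. In eWAT they were 134 to 385 CPM at days 0 and 2 and 346 to 807 CPM at day 4.

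Cars2 encodes the cysteinyl-tRNA synthetase of mitochondria (NM_024248, chr8:11514017-11550781). Its iBAT values were 81.6, 80.7 and 70.6 CPM at day 0, 350, 245 and 342 CPM at day 2 with iBAT535 highest (9.06 on the log2 CPM scale), and 188, 362 and 309 CPM at day 4. There was no overlap with day 0, and the log2 differences were 2.33 (SE 0.38) and 1.94 (SE 0.38). As for Ctsz, iWAT began at the level of iBAT and stayed there: 79.1 ± 22.3 CPM at day 0, 96.1 ± 13.9 CPM at day 2 and 76.6 ± 19.1 CPM at day 4. Its iWAT log2 differences were 0.26 (SE 0.36, edgeR adjusted p = 0.801) and 0.01 (SE 0.32, edgeR adjusted p = 0.997). The eWAT means were 55.1 ± 16.2, 39.4 ± 15 and 47.7 ± 1.94 CPM, with differences of -0.47 (SE 0.40) and -0.22 (SE 0.40) that did not pass (edgeR adjusted p = 1 for both).

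Rom1 encodes a tetraspanin-family protein best known from the disc membranes of photoreceptors (NM_009073, chr19:8927382-8929356). In iBAT it stood at 8.4, 9 and 10.2 CPM at day 0, at 47, 54.1, 34 and 56.2 CPM at day 2 and at 18.8, 40.8 and 29.6 CPM at day 4. No library in the cold overlapped day 0, with log2 differences of 2.46 (SE 0.40) and 1.75 (SE 0.41). In iWAT it stood at 4.26, 7.34, 3 and 4.32 CPM at day 0, at 6.43, 13.5 and 10.7 CPM at day 2 and at 3.96, 14, 8.09, 11.5 and 8.6 CPM at day 4. The iWAT groups overlap, and the differences of 1.06 (SE 0.49, edgeR adjusted p = 0.468) and 0.98 (SE 0.45, edgeR adjusted p = 0.596) did not pass. In eWAT Rom1 ran from 1.77 to 8.85 CPM, with differences of 0.02 (SE 0.62) and 0.24 (SE 0.62).

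In iBAT all 8 genes were higher in every day 2 library than in every day 0 library, as 5.59% of the 8270 genes tested in iBAT were, which is what the genes were chosen for. At the edgeR threshold, an adjusted p of 0.05, 0.133% of genes were higher at day 2. Kcnk3 lay outside it and the other 7 inside. Of the genes past the threshold in either direction, 84.6% were higher at day 2, and 0% were with library size alone as scaling, which shifted the median gene by -0.28. The genes just inside it were Ctsz (2.56) and Tesc (3.10), and those just outside were Letm1 (2.01) and Gmpr (4.25, all log2 differences). At day 4, 7 of the 8 did not overlap day 0, against 6.7% of all genes. The median log2 difference of the 8 was 2.55 at day 2 and 2.20 at day 4, against 0.01 and -0.04 for all genes. The first became 2.41 without iBAT539 and the second 2.26 without iBAT548. Day 2 and day 4 overlapped for each of the 8 genes, though the mean was lower at day 4 for all but Tesc.

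**Figure D2:**
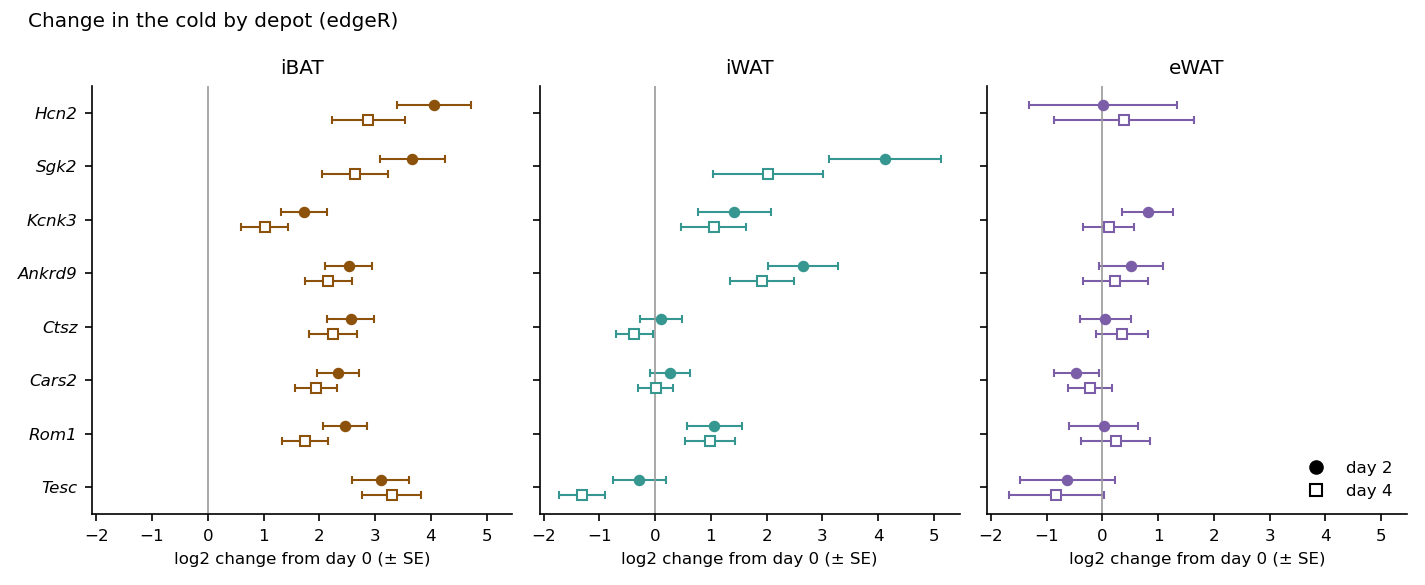
Log2 change from day 0 in each depot, with its standard error, from edgeR. Filled circles are day 2 and open squares are day 4. Hcn2 in iWAT and Sgk2 in eWAT were too low to be tested and are left out. In iBAT all points lie above 0, and in eWAT all lie within 1 log2 unit of 0. In iWAT Sgk2, Kcnk3, Ankrd9 and Rom1 lie at 0.98 or more on both days, and Cars2 lies at 0.26 and 0.01.

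Whether white fat shared the response was tested in each white depot over all genes. In iWAT 0 of the 7 genes that could be tested passed edgeR at day 2 or day 4, where 0% of 9574 genes did. At an unadjusted p under 0.05 there were 4 of the 7 (Sgk2, Kcnk3, Ankrd9 and Rom1) against 10.7% of all genes at day 2, and 3 of the 7 (Ankrd9, Rom1 and Tesc, the last lower) against 8.28% at day 4. DESeq2 called 2 of the 7 at day 2, Sgk2 and Ankrd9, among 111 genes, and none at day 4 among 43 genes. Limma voom called none on either day. Every day 2 library lay above every day 0 library for 2 of the 8 genes, again Sgk2 and Ankrd9, against 8.29% of all genes. The median iWAT difference of the 7 was 1.06 at day 2 and 0.98 at day 4, against -0.08 and -0.01 for all genes. Sgk2 passes the filter on low counts in iWAT only through libraries in the cold, so its part in these counts adds no support.

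In eWAT 0 of 7 genes passed edgeR on either day, and 0 passed at an unadjusted p under 0.05, where 1.06% and 2.76% of 10043 genes did. DESeq2 called none of the 7, among 0 and 4 genes. The median difference was 0.02 at day 2 and 0.23 at day 4, with single values from -0.83 to 0.81. The test of iWAT against eWAT in the day 2 or day 4 change passed for 0 of the 8 genes and for 0% of 11041 genes. At an unadjusted p under 0.05, 2 of the 8 passed on each day, Sgk2 and Ankrd9, against 5.33% and 4.06% of all genes. Sgk2 had 3, 3 and 0 counts in eWAT at days 0, 2 and 4 and passes the filter only through other depots. Its part in this count adds no support. DESeq2 called none of the 8 among 23 and 11 genes. No difference between these depots in the response of the 8 genes was thus shown.

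The iWAT libraries of day 4 differed widely among themselves. Library iWAT550 held the most Kcnk3 (371 CPM), Ankrd9 (118 CPM), Sgk2 (3.72 CPM) and Rom1 (14 CPM), and iWAT553 came next for Kcnk3 (313 CPM), Ankrd9 (106 CPM) and Rom1 (11.5 CPM). Library iWAT555 held the least Kcnk3 (39.2 CPM) and Ankrd9 (15 CPM), and also the least Ctsz (272 CPM) and Cars2 (54.9 CPM). It stood apart in its markers too: epididymis and testis markers (8 of 8 detected) summed to 3380 CPM there against 0.539 to 119 CPM in the other 4, and adipocyte markers to 7420 CPM against 24200 to 50900 CPM. Their part in its values was not tested. Without iWAT555 the day 4 log2 differences in iWAT were 1.31 for Kcnk3 (SE 0.51, edgeR adjusted p = 0.294), 2.16 for Ankrd9 (SE 0.51, edgeR adjusted p = 0.113) and -1.49 for Tesc (SE 0.44, edgeR adjusted p = 0.183), and none of the 7 passed. The summed brown adipocyte markers were 10600 CPM in iWAT550, 9260 in iWAT553, 5610 in iWAT548, 2760 in iWAT551 and 732 in iWAT555. Ucp1 itself was 5850, 3300, 5130, 1090 and 490 CPM in the same order. Lymphocyte markers were 1160, 860, 1430, 2240 and 2860 CPM in that order. At the upper end Ctsz and Cars2 did not follow this order: iWAT550 held 391 CPM of Ctsz, below 454 and 556 CPM in iWAT551 and iWAT553, and 72.6 CPM of Cars2, below 98.7 CPM in iWAT551.

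The genes differed in how iBAT and iWAT compared before the cold. In iBAT at day 0 the libraries of Sgk2, Kcnk3, Ankrd9 and Rom1 all lay above those of iWAT. These 4 had log2 differences of 0.98 or more in iWAT on both days, against 0.26 or less for Ctsz, Cars2 and Tesc, while Hcn2 was too low there to be tested. Ctsz and Cars2 overlapped between the depots, Hcn2 was low in both, and Tesc was lower in iBAT. This grouping was noticed after the values were seen and was not tested. Against eWAT at day 0, iBAT was higher without overlap for 6 genes, Hcn2 and Tesc being the others. The shares of all genes separated between these depots at day 0 were not computed, so the counts are a description only.

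After 4 days in the cold, every iBAT library lay above every library of both white depots for all 8 genes. The share of all genes for which this held was not computed, so it is given as a description. In the edgeR fit of all 31 libraries all 8 passed against iWAT, where 5.83% of 11041 genes were called higher in iBAT, and all 8 passed against eWAT, where 6.67% were. In this fit Hcn2 passes the filter on low counts against both white depots only through iBAT, where it is higher. In eWAT at day 4 it had 2 to 17 counts per library. Sgk2 passes against eWAT only through depots where it is higher. The calls of Hcn2 in both pairs, and of Sgk2 against eWAT, thus add no support. The other 6 pass the filter in each depot by itself. The day 4 libraries were not used to choose the genes, but the choice was made with earlier results of this series known. The estimate of the spread in this fit also drew on the iBAT libraries that chose the genes. The calls are thus not fully free of the choice, and fewer of the 8 passed in a fit of only the compared groups, given below.

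Against iWAT the log2 differences ran from 1.62 for Rom1 (SE 0.44, edgeR adjusted p = 0.0117) and 1.67 for Kcnk3 (SE 0.50, edgeR adjusted p = 0.0212) to 3.18 for Hcn2 (SE 0.80, edgeR adjusted p = 0.00656) and 4.32 for Sgk2 (SE 0.73, edgeR adjusted p = 0.000203). Ctsz had the smallest p, with 2190 ± 815 CPM in iBAT (n = 3) against 395 ± 115 CPM in iWAT (n = 5), a difference of 2.40 (SE 0.34, edgeR adjusted p = 2.37e-05). Tesc, with 28.3 ± 12.3 CPM against 4.08 ± 2.01 CPM, differed by 2.70 (SE 0.54). Ankrd9 differed by 2.54 (SE 0.52) and Cars2 by 1.83 (SE 0.32). Without iBAT550, Kcnk3 (edgeR adjusted p = 0.0613) and Rom1 (0.066) were no longer called, and without iWAT555 all 8 were.

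Against eWAT the order changed. Kcnk3 differed most among genes counted in both depots, by 4.70 (SE 0.67, edgeR adjusted p = 3.66e-05), with 628 ± 104 CPM in iBAT against 23.9 ± 10.9 CPM in eWAT. Ankrd9 followed at 4.33 (SE 0.67), then Tesc at 3.67 (SE 0.67), Ctsz at 2.75 (SE 0.42), Cars2 at 2.56 (SE 0.38) and Rom1 at 2.03 (SE 0.52). Sgk2 had a count of 0 in the 3 eWAT libraries of day 4, where 3 counts over the group would be 0.24 CPM. It was therefore at least 119-fold higher in iBAT, at 28.6 CPM, a limit that covers counting error only. Hcn2 had the weakest call, 2.66 (SE 0.91, edgeR adjusted p = 0.0424). Its eWAT libraries held 3.99, 0.721 and 0.489 CPM, and the adjusted p ran from 0.0168 to 0.161 without 1 library at a time. The call was lost without any of the 3 iBAT libraries or eWAT551 or eWAT553.

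**Figure D3:**
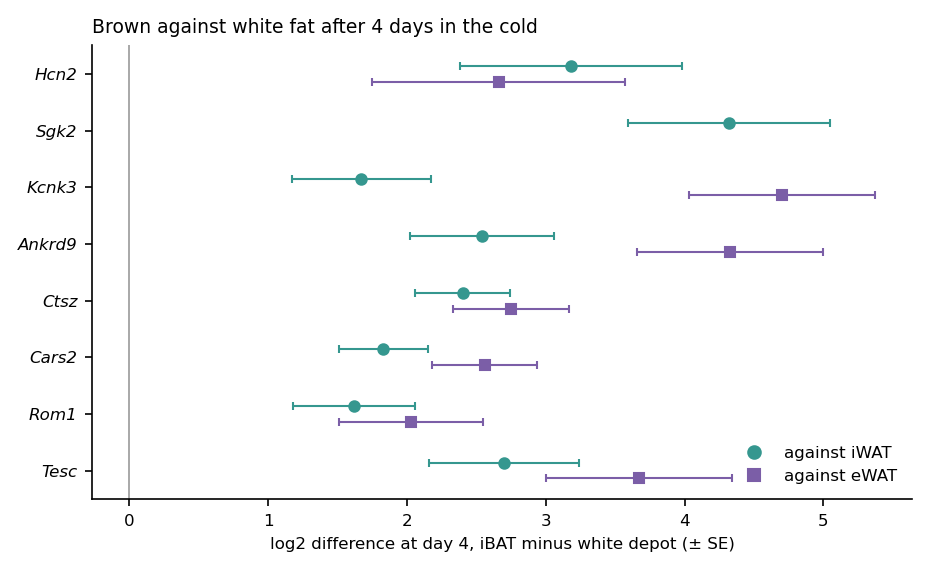
Log2 difference between iBAT and each white depot at day 4, with its standard error, from the edgeR fit of all libraries. Circles are against iWAT and squares against eWAT, and Sgk2 against eWAT is left out because it had no count there. All points lie above 0, from 1.62 for Rom1 against iWAT to 4.70 for Kcnk3 against eWAT.

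The median gene differed by -0.37 between iBAT and iWAT and by -0.41 between iBAT and eWAT at day 4, and with library size alone as scaling these medians shifted by a further -0.4 each. All 8 differences kept their direction under that scaling, as they did under RLE size factors. The share of calls that were higher in iBAT moved from 33.2% to 16% against iWAT and from 36.9% to 21.1% against eWAT. The white depots were also compared with each other before the cold, which is another pair of depots at another time. Of the 8, 1 passed at day 0, Kcnk3, against 7.82% of 11041 genes. Ctsz was 1.09 higher in iWAT (SE 0.38, edgeR adjusted p = 0.0742) and Tesc 1.47 higher (SE 0.59, edgeR adjusted p = 0.133), neither past the threshold.

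The relatives of the 8 genes give their setting. Of the other HCN channels, Hcn4 stayed below 1 CPM in every group mean, and Hcn3 was seen mainly in iWAT at day 0, at 7.49 ± 4.75 CPM. Hcn3 was higher in iWAT than in eWAT at day 0 by 3.62 log2 units (SE 1.05, edgeR adjusted p = 0.0314). Of 14 other two-pore potassium channels listed, 2 could be tested at day 4. Kcnk1 was lower in iBAT than in eWAT (edgeR adjusted p = 0.00247), with 0.209 ± 0.362 CPM against 41.2 ± 61.8 CPM, and Kcnk6 stood at 4.07 ± 4.61 CPM in iBAT, 10.8 ± 6.61 in iWAT and 7.03 ± 1.29 in eWAT. Sgk1, listed beside Sgk2, had almost no counts in the tables used. Pparg, a gene of all adipocytes, had none in white fat, so an almost empty row does not show that a gene is silent.

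Most other cathepsins did not share the depot order of Ctsz. Ctsd did, at 1820 ± 406 CPM in iBAT at day 4, 928 ± 456 in iWAT and 807 ± 128 in eWAT. Neither difference passed (edgeR adjusted p = 0.106 and 0.0775). Ctsb had that order too, at 1360 ± 1110, 1150 ± 471 and 917 ± 543 CPM, and Ctsf was also highest in iBAT. Of 10 tested at day 4, 1 was higher and 4 lower in iBAT than in iWAT, and 0 were higher and 4 lower than in eWAT, with medians of -0.93 and -1.64 log2 units. Of all 11041 genes, 11.7% were lower in iBAT than in iWAT and 11.4% lower than in eWAT, with medians of -0.37 and -0.41. Ctso, a lysosomal cysteine protease, stood at 28.9 ± 10.7 CPM in iBAT against 94.1 ± 18.3 CPM in iWAT and 115 ± 37.2 CPM in eWAT (edgeR adjusted p = 0.000419 and 0.000326). Ctsc, which activates granule proteases of immune cells, stood at 18.4 ± 7.36 CPM against 136 ± 42.3 and 167 ± 111 CPM (edgeR adjusted p = 0.00273 and 0.00254). Ctsw, a cathepsin of cytotoxic lymphocytes, was 50.3 ± 33 CPM in iWAT and 2.1 ± 2.27 CPM in iBAT (edgeR adjusted p = 0.00037), where lymphocyte markers were 860 to 2860 CPM and 0 to 14.3 CPM. Ctsl (0.00846) and Ctsh (0.0133) were also lower in iBAT than in eWAT by edgeR adjusted p. Ctsf, higher in iBAT than in iWAT, and Ctse, lower, were named after their values were seen.

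Some other mitochondrial aminoacyl-tRNA synthetases, which load tRNAs for the proteins made inside mitochondria, also stood above eWAT. Of 12 others tested, 3 were higher in iBAT than in eWAT at day 4 and 0 lower, with a median of 1.08: Vars2 by 1.51 (SE 0.35, edgeR adjusted p = 0.00418), Mars2 by 1.79 (SE 0.50, edgeR adjusted p = 0.0144) and Wars2 by 1.43 (SE 0.45, edgeR adjusted p = 0.0273). Against iWAT 0 of the 12 passed, with a median of 0.46, and Cars2 differed by 1.83. Of 13 cytosolic synthetases, Gars alone was higher than in eWAT, by 1.41 (SE 0.43, edgeR adjusted p = 0.0231). Against iWAT, Farsa was higher (edgeR adjusted p = 0.0391) and Vars lower (edgeR adjusted p = 0.00255). In iBAT, the mitochondrial synthetases differed from day 0 by a median of 0.48 at day 2 and 0.74 at day 4, against 2.33 and 1.94 for Cars2.

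Among 17 other tetraspanins at day 4, 0 were higher and 3 lower in iBAT than in iWAT: Cd37 and Cd53, both leukocyte proteins, and Cd9. With 11.7% of all genes lower, this count does not set the list apart. Cd37 stood at 5.02 ± 5.02 CPM in iBAT and 294 ± 138 CPM in iWAT (edgeR adjusted p = 0.000172), and Cd53 at 15.6 ± 10.3 and 151 ± 110 CPM (0.00252, edgeR adjusted p). Against eWAT, Tspan18 was higher in iBAT by 2.79 (SE 0.70, edgeR adjusted p = 0.00721), and Cd9 and Tspan5 were lower. Of 6 genes tested from the list of Tesc relatives and Na+/H+ exchangers, 0 passed as higher in iBAT at day 4, and 1, Slc9a9, was lower in iBAT than in both white depots (edgeR adjusted p = 0.0365 and 0.0225).

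Of the partners listed with Ankrd9, Eloc, the elongin C adaptor of cullin ligases, lay 0.84 log2 units above iWAT in iBAT at day 4 (SE 0.29, edgeR adjusted p = 0.0441) and 1.09 above eWAT (SE 0.33, edgeR adjusted p = 0.0239). Impdh1, an IMPDH gene, stood at 450, 871 and 308 CPM in iBAT at day 0, at 89.3, 70.9, 51 and 52.8 CPM at day 2 and at 27.3, 83.4 and 108 CPM at day 4. Every iBAT library in the cold lay below every day 0 library, while Ankrd9 in the same libraries lay above. The share of all genes lower in this way was not computed, and a link between Ankrd9 and Impdh1 was not tested. In iWAT, where Ankrd9 was also higher at day 2, Impdh1 stood at 23.9 ± 16.2 CPM at day 0 and 43.4 ± 9.23 CPM at day 2. Impdh2 stood at 65 ± 14.8, 24.2 ± 18.5 and 34.5 ± 26.9 CPM in iBAT at days 0, 2 and 4. These iBAT values come from the libraries that chose the genes and carry no test.

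**Figure D4:**
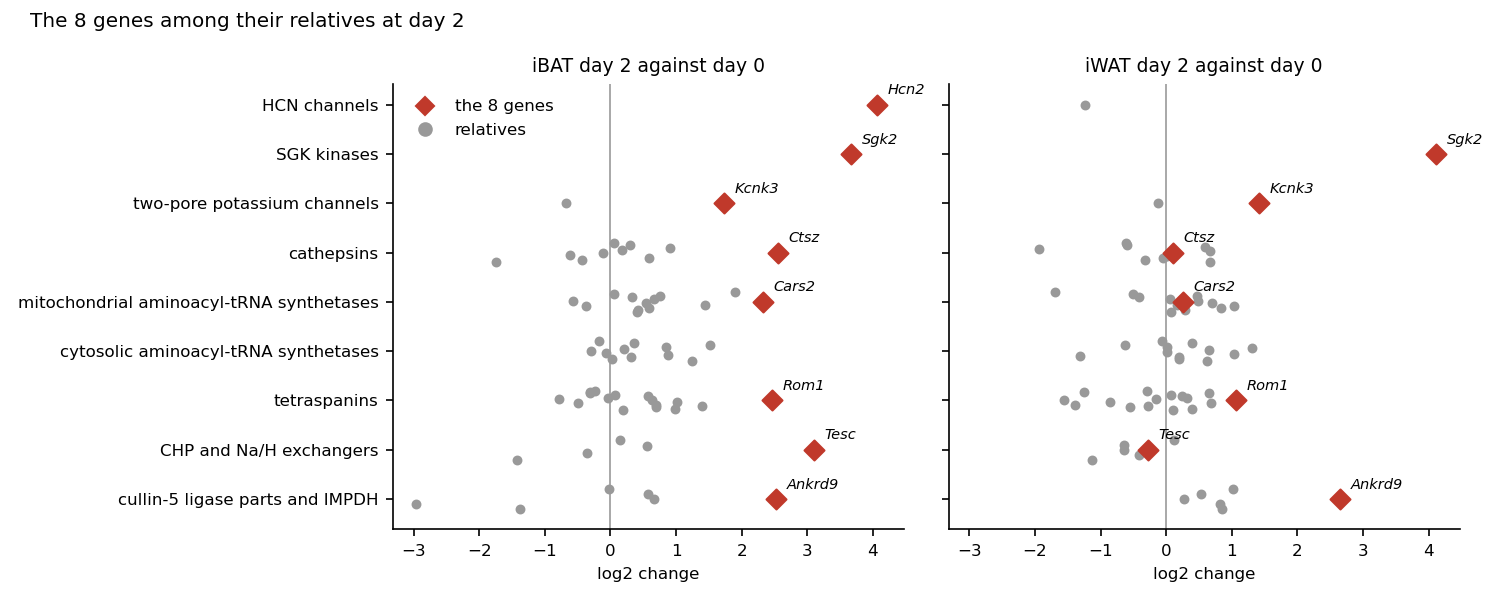
Log2 change at day 2 of the 8 genes (red diamonds) and of their listed relatives (grey points) in iBAT and iWAT. Each row is 1 list, and CHP stands for calcineurin B homologous proteins. In iBAT the diamonds lie to the right of the relatives, which is what they were chosen for, and in iWAT Ctsz, Cars2 and Tesc lie among theirs while Kcnk3, Ankrd9 and Rom1 lie to the right of theirs.

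Likeness of pattern was measured as Pearson's r of mean log2 CPM over the 9 groups of depot and day, among 10801 genes, and is a description with no test. The likest genes were Cend1 (0.988) and Ric1 (0.978) for Hcn2, Mrpl15 (0.986) and Dlat (0.985) for Kcnk3, and Kcmf1 (0.986) and Txn2 (0.983) for Sgk2. They were Nt5dc1 (0.94) and Tmem208 (0.934) for Tesc, Pdhx (0.991) and Prelid3b (0.99) for Ankrd9, and Rb1cc1 (0.979) and Acsl5 (0.964) for Ctsz. For Cars2 they were Exosc4 (0.965) and Dnajc11 (0.965), and for Rom1 Agpat5 (0.992) and Dhrs9 (0.988). Tesc thus had no gene as like it as the others had. The 9 means share libraries and scaling across all genes.

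As reference values, Ucp1 stood at 7500 ± 2080, 22300 ± 16000 and 27100 ± 8780 CPM in iBAT at days 0, 2 and 4, and at 213 ± 209, 6040 ± 2550 and 3170 ± 2370 CPM in iWAT. Elovl3, a fatty acid elongase, stood at 60.6 ± 40.2, 768 ± 309 and 547 ± 39.6 CPM in iBAT and at 4.6 ± 5.88, 89.1 ± 47.2 and 55.3 ± 42.4 CPM in iWAT. Dio2, the enzyme that activates thyroid hormone in the tissue, stood at 41.4 ± 30.1, 424 ± 123 and 215 ± 109 CPM in iBAT and at 4.39 ± 5.89, 58.6 ± 28.3 and 21.3 ± 17.4 CPM in iWAT. In eWAT the means of these 3 genes stayed at or below 20.8 CPM. The iWAT means of Sgk2, Kcnk3, Ankrd9 and Rom1, like those of these 3 references, were highest at day 2, next at day 4 and lowest at day 0, and those of Hcn2, Ctsz, Cars2 and Tesc were not in that order.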

How the data were processed

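The authors deposited raw counts per RefSeq accession, 1 table per depot. Per the submitters' processing notes, cutadapt and BWA were used with build mm10; versions, the counting step and strand use are not given in the sources used here, so counts of genes that overlap or lie antisense may be mixed. The tables hold no 0, and missing entries were taken as 0 counts. Symbols and positions came from RefSeq GRCm38.p6 (17030 accessions) and GENCODE (105); 199 had none. The tests were run with edgeR 4.0.16 under R 4.3.3 (TMM, filterByExpr with minimum count 10 and minimum total 15, robust quasi-likelihood tests, two-sided, Benjamini-Hochberg over all genes tested, threshold 0.05), within a depot for days and over all 31 libraries between depots. DESeq2 1.42.0 and limma 3.58.1 were alternatives, as were other scalings, no filter, fewer groups, a library score (the within-group axis of the other depots, prior count 2), a replicate block and leaving out each library. The edgeR script was tested on simulated data. Total counts per library were 1.5 to 5.53 M, and no molecular identifiers are recorded, so limits from counts cover counting error only. The labels do not say whether libraries with 1 number come from the same mouse, so p-values measure the spread between these libraries. The 8 genes and the lists of relatives and markers were chosen with earlier results of these data known. Named besides the 8 were relatives past the threshold, at most 3 with the smallest p per list and comparison, the 2 likest genes for each, and Ucp1, Elovl3 and Dio2. Other names, and the levels of relatives given without a test, were chosen after their values were seen. Promoter sequences are RefSeq's; Sgk2 and Kcnk3 had no entry in the table used.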

Additional observations from a re-analysis of the deposited data

Results flagged for a closer look

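Of 24 groups of 4 or 5 libraries, taken gene by gene over the 8 genes, 3 held a library whose gap to the nearest other exceeded Dixon's 95% critical value; chance gives about 1 in 20. Hcn2 stood at 1.99 CPM in library iWAT516 at day 0, against 0.489 to 0.601 CPM in the other 3. Sgk2 stood at 3.72 CPM in library iWAT550 at day 4, against 0.283 to 1.04 CPM in the other 4. Ctsz stood at 377 CPM in library iWAT517 at day 0, against 566 to 595 CPM in the other 3, and without that library its day 2 difference turned from 0.11 to -0.05 on the log2 scale.

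Cars2 at day 2 lay above its day 0 mean in all iWAT libraries and below it in all eWAT libraries. The day 2 changes were 0.78 log2 units apart (SE 0.49), and the test of that difference did not pass (edgeR adjusted p = 0.777).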

How the results depend on the processing

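The calls of 0 in iWAT and eWAT over time, and of 0 in the tests between their changes, stayed at 0 members under each setting but DESeq2, which called 2 in iWAT at day 2. Over all genes DESeq2 called 111 and 43 in iWAT at days 2 and 4, 4 in eWAT at day 4, and 23 and 11 between the changes, where edgeR called 0, and edgeR called 4 in iWAT at day 4 without iWAT555. Between iBAT and iWAT at day 4, 6 to 8 members were called without 1 library at a time and 6 in a fit of only the compared groups, and against eWAT 7 to 8 and 7. Library size alone and no filter each left 7 against eWAT, without Hcn2. Between iWAT and eWAT at day 0, the 1 call became 2 with DESeq2, 3 with limma voom, 2 with the library score, and 0 to 1 without 1 library at a time.

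Label numbers recur across depots. With the number as a replicate block, 6 members were called against iWAT at day 4 (not Kcnk3, adjusted p = 0.0505, or Rom1, 0.062, by edgeR) and 6 against eWAT (not Hcn2, 0.213, or Rom1, 0.101). Between iWAT and eWAT at day 0, 0 were called (Kcnk3, 0.0685), and 0 between their changes. Of 23 pairs of libraries with 1 number, 6 had a correlation of deviations over 0.1 (range -0.441 to 0.364). Such correlations between depots cannot decide whether 1 number means 1 mouse, which the labels do not say. The numbers were not taken as pairs in the main fits. Days within a depot share no numbers, so no block could be fitted there.

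Over all genes at day 4, the 1940 calls against iWAT became 818 with only the compared groups and 1230 without iBAT550. The 1993 against eWAT became 657 with only the compared groups, 1186 without iBAT548 and 1161 without eWAT551. The 863 between white depots at day 0 became 506 with only the compared groups, 1348 with the score, and 390 to 1300 without 1 library at a time. In iWAT, the Cars2 day 4 difference of 0.01 became -0.12 with library size alone, -0.01 with no filter, 0 with the score, and -0.19 to 0.15 without 1 library at a time. The Ctsz day 2 difference ran from -0.06 to 0.24. Without 1 library at a time the iBAT medians ran from 2.41 to 2.71 at day 2 and 2.08 to 2.27 at day 4, and with library size alone they were 2.27 and 1.93. The cause of these shifts was not tested. Depth limits Hcn2 and Sgk2 in white fat.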
